A study of Mus musculus with 12 samples.

Results

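The complement genes C1ra, C1s1, C2, C3, C4b, Cfb, Serping1, Cd55 and Cd59a were followed as named members across irradiated and control cells of 2 mouse tumour lines. The 9 genes were found by symbol among the 57180 rows of the gene count table, and 7 of them passed a filter on low counts that left 14362 genes for testing; Cd55 and Cd59a did not pass. RNA-seq was done on KPC cells, labelled as mouse pancreatic ductal adenocarcinoma, and on MB49 cells, labelled as mouse bladder cancer, each after 8 Gy of radiotherapy and as a control, with 3 libraries per group. The genotype is labelled WT in all 12 libraries, and both lines were grown in DMEM with fetal bovine serum. Irradiated cells were cultured for 48 h before collection. How long controls were cultured is not stated, so radiation dose and time in culture cannot be told apart. The design text also speaks of senescent cells, but the sample labels give only control or irradiated cells. Nothing in the labels ties the 3 libraries of a group to separate cultures, and p-values here therefore reflect library-to-library spread, which may be technical. RNA was measured in bulk, and a change in the number of cells of a type and a change in RNA per cell cannot be told apart.

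Complement is a cascade of plasma and surface proteins that tags cells and particles for clearance. In the classical pathway the proteases C1r and C1s are activated on bound C1q. C1s then cleaves C4 and C2, which form an enzyme that cleaves C3. In the alternative pathway factor B, encoded by Cfb, joins cleaved C3 to form a second such enzyme, and inhibitors in plasma and on cell membranes hold the cascade in check. The liver makes most plasma complement, and many other cell types, tumour cells included, transcribe complement genes.

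Promoter windows are shown for C1ra, C1s1 and C3, the members with the highest levels per kilobase in MB49 cells. The sequences are from RefSeq on GRCm38.p6, each window is 300 bases long and spans the annotated start, and 5 of the 9 members had an entry (C1ra, C1s1, C3, Cd55 and Cd59a). Capitals mark matches to motif letters in either strand. C1ra lies at chr6:124512371-124512670 on the plus strand, C1s1 at chr6:124542310-124542609 on the minus strand, and C3 at chr17:57228087-57228386 on the minus strand.
C1ra: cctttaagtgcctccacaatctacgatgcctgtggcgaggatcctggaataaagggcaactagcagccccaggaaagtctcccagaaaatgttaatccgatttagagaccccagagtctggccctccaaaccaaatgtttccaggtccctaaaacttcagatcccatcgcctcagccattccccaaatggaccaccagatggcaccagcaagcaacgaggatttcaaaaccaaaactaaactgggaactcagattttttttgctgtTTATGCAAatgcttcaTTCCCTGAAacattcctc
C1s1: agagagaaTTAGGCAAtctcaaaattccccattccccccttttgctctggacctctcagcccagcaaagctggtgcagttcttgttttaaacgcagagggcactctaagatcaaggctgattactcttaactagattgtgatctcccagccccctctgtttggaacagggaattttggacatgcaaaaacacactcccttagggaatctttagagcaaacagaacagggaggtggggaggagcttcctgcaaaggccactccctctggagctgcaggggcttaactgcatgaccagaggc
C3: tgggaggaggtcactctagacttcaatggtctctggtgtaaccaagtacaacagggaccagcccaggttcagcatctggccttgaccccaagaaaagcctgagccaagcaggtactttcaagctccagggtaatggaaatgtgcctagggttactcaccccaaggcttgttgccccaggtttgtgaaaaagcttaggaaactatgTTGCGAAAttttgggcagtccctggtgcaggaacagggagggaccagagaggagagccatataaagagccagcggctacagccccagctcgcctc
The letters searched were TTCNNNGAA (the gamma-interferon activated site, GAS) and TTGCNNAA (C/EBP), beside the interferon-stimulated response element (ISRE) and an NF-kB motif. They were chosen with results of these data known, and no matches overlapped. C1ra held a GAS match, TTCCCTGAA, at position 283 of its window, and 8.3% of 32851 promoter windows held one. C/EBP matches stood at position 267 in C1ra, position 9 in C1s1 and position 206 in C3. A second annotated C1s1 window, chr6:124542272-124542571, held no match, and 10.8% of all windows held this motif. No ISRE or NF-kB match was found in these 3 windows, and these motifs occurred in 3.44% and 0.411% of all windows. Of the other members with an entry, Cd59a held an ISRE match at position 64 of its window, and Cd55 held no match to any of the motifs. In C1ra the GAS and C/EBP matches began 32 and 16 bases past the annotated start.

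Library totals ran between 19006015 and 26337950 counts. Levels are given as CPM, counts scaled to library size with TMM factors. The labels were checked against marker genes. Of the 6 simple epithelial markers, Krt8 averaged 1820 CPM in irradiated KPC, 363 CPM in control KPC, 1510 CPM in irradiated MB49 and 1200 CPM in control MB49 cells, and Krt18 was similarly high. Cdh1 averaged 143 CPM in irradiated and 39 CPM in control KPC cells, but 0.0664 CPM in irradiated and 0.945 CPM in control MB49 cells. Krt19 averaged 416 CPM in irradiated and 80.7 CPM in control KPC cells, against 3.25 CPM in irradiated and 3.85 CPM in control MB49 cells. Epcam was at most 1.24 CPM in any group mean. The 5 pancreatic duct markers summed to 628 to 712 CPM in irradiated and 333 to 359 CPM in control KPC cells, and to 138 to 192 CPM in irradiated and 149 to 178 CPM in control MB49 cells. The 5 urothelial uroplakins, the defining markers of bladder epithelium, summed to at most 0.291 CPM in any MB49 library and 0.694 CPM in any KPC library, near 0 also in the line labelled as bladder cancer.

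Markers of other cell types that can make complement were also read. Of the 8 leukocyte markers, Fcer1g and Aif1 were at 0 and Ptprc had 1 count in all 12 libraries. Csf1r averaged 1.62 CPM in irradiated and 0.106 CPM in control KPC cells, and 0.07 CPM in irradiated and 0.101 CPM in control MB49 cells. Lyz2 averaged 0.682 CPM in irradiated and 0.182 CPM in control MB49 cells, against 0.0997 CPM in irradiated and 0.117 CPM in control KPC cells. Adgre1 averaged 0.136 CPM in irradiated and 0.0267 CPM in control MB49 cells. The leukocyte sum was 94.5 to 103 CPM in irradiated KPC, 35.4 to 36.5 CPM in control KPC, 56.9 to 67.7 CPM in irradiated MB49 and 58.5 to 62.6 CPM in control MB49 cells, nearly all of it Cd14. The 5 hepatocyte markers summed to at most 1.78 CPM, with 1 count of Alb in all. The 7 fibroblast and endothelial markers summed to 161 to 216 CPM in irradiated and 52.5 to 82.0 CPM in control MB49 cells, with Dcn at 137 CPM in irradiated and 36.1 CPM in control cells. In KPC cells their sum was 37.8 to 46.9 CPM after irradiation and 75.9 to 92.3 CPM in controls. This sum was thus higher after irradiation in MB49 and lower in KPC cells, with no overlap of libraries. Single markers went both ways. In MB49 cells Pdgfra averaged 39.6 CPM after irradiation and 11.1 CPM in controls, but Col1a1 5.77 and 13.3 CPM. In KPC cells Col1a1 averaged 33.8 CPM after irradiation and 73.2 CPM in controls, but Pecam1 0.85 and 0.0538 CPM. Replicate 3 of the MB49 controls stood apart, with 86 Epcam counts and 225 Col1a2 counts where the other MB49 controls had 0 Epcam counts and at most 2 Col1a2 counts. What these markers contribute to the results was not tested, and member values that move by over 1.5 times or change their call without that library are given with and without it.

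Irradiation was followed by higher levels of complement genes in both lines. In KPC cells all 7 tested members rose in the quasi-likelihood test of edgeR, with p-values adjusted by the Benjamini-Hochberg method, and 31.3% of all genes tested were called higher there. In MB49 cells 6 of the 7 rose and C2 did not pass, against 35.3% of all genes called higher. Each of the 7 rose at least 8-fold in KPC cells, where 4.07% of all genes were called at least that much higher. In MB49 cells 2 members, C1ra and C4b, did so, against 3.91% of all genes. C1ra lay close to that threshold: the count was 1 without irradiated MB49 replicate 1, without KPC control replicate 1, with scaling by library totals, with no filter and with only the MB49 libraries in the fit. Without MB49 control replicate 3 the 2 were C4b and Cfb, with C1ra at 2.93 and Cfb at 3.39 on the log2 scale. C2, C4b and Serping1 averaged at most 0.4047 CPM in either control group. Genes this low in controls reach the tests mainly through irradiated libraries, so for these members a rise in KPC cells was favoured in advance. C4b and Serping1 averaged 33.92 and 2.462 CPM in irradiated MB49 cells, so their rise in that line was favoured in advance as well.

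**Figure D1:**
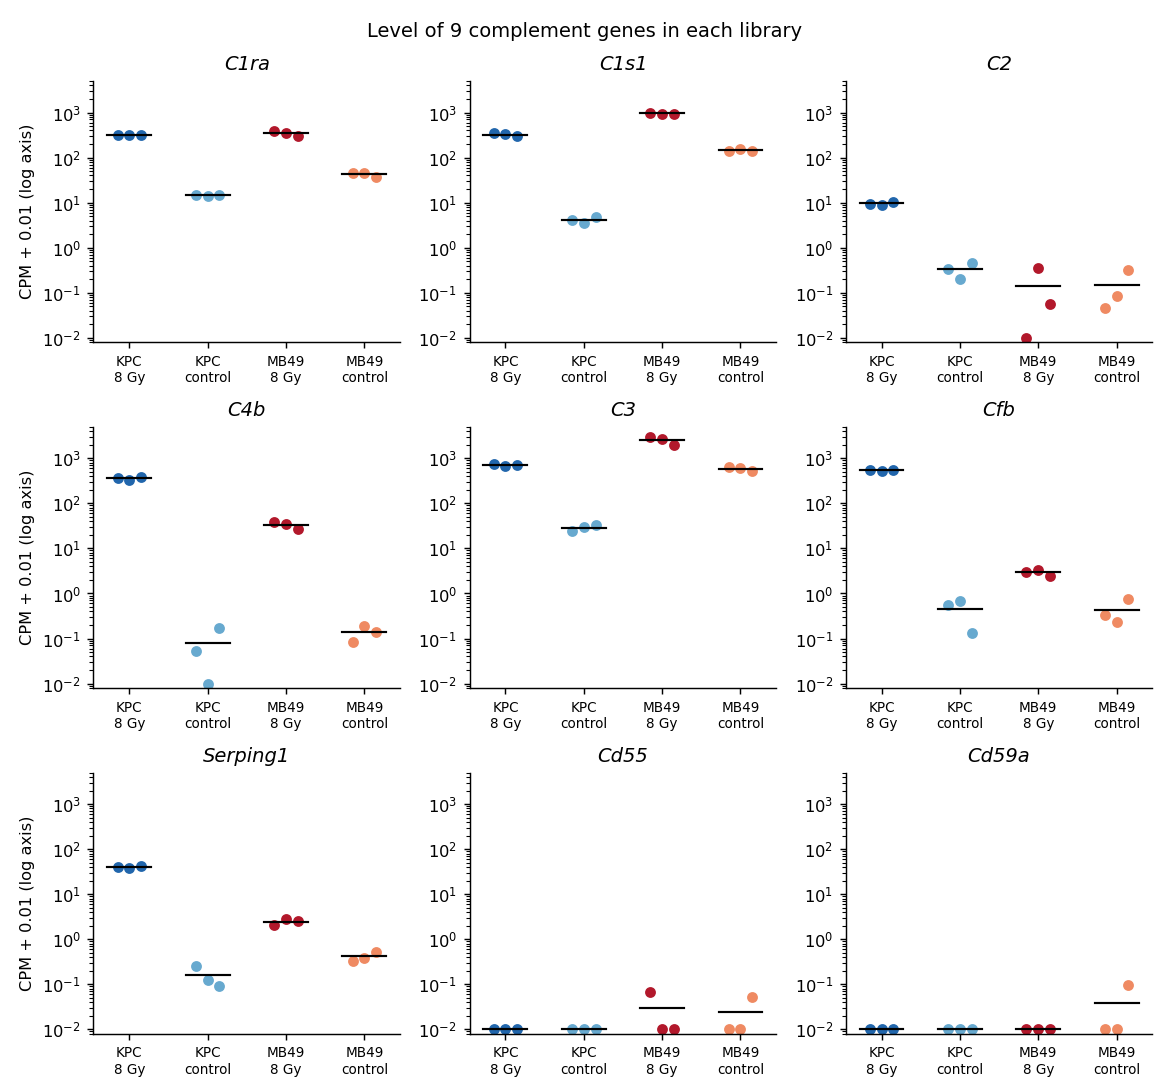
Level of each member in every library, in CPM plus 0.01 on a log axis. Each point is 1 library, the black bar is the mean of 3 libraries, and groups run as KPC 8 Gy, KPC control, MB49 8 Gy and MB49 control. The irradiated libraries stand above the controls of the same line for every tested member except C2 in MB49 cells, and Cd55 and Cd59a are at or near 0.

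C1ra and C1s1 encode the proteases C1r and C1s that start the classical pathway. C1ra stood at 318.2, 312.4 and 309.5 CPM in irradiated KPC cells, against 14.81, 13.74 and 14.99 CPM in KPC controls. In MB49 cells it stood at 394.7, 360.1 and 301.7 CPM after irradiation, against 45.37, 46.48 and 37.88 CPM in controls. The irradiated libraries of both lines lay far above their controls and overlapped each other. C1ra rose by a log2 fold change of 4.43 ± 0.14 (SE, adjusted p = 6.08e-14) in KPC and of 3.02 ± 0.13 (adjusted p = 3.3e-12) in MB49 cells.

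C1s1 stood at 346.3, 331.0 and 293.6 CPM in irradiated KPC cells, against 4.077, 3.443 and 4.902 CPM in KPC controls. In irradiated MB49 cells it stood at 995.5, 929.1 and 949.4 CPM, against 140.7, 153.4 and 139.8 CPM in MB49 controls. No groups overlapped, and untreated MB49 cells already held high C1s1. The fold change was 78.2 in KPC (log2 6.29 ± 0.16, adjusted p = 4.39e-15) and 6.62 in MB49 cells (log2 2.73 ± 0.13, adjusted p = 1.21e-11).

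Per kilobase, C1s1 was 1.06 ± 0.0755 times C1ra in irradiated KPC and 0.292 ± 0.0400 times C1ra in control KPC cells (SD, n = 3). In MB49 cells the ratio was 2.82 ± 0.354 after irradiation and 3.45 ± 0.307 in controls. The KPC groups did not overlap in this ratio, and the MB49 groups did. The log2 difference of the ratio in KPC cells was 1.87 (exact permutation test, 2-sided, p = 0.1, adjusted p = 0.133), against -0.29 in MB49 cells (p = 0.2, adjusted p = 0.2, exact permutation). With 3 libraries against 3 the smallest p possible is 0.1, and 4 such comparisons were made. Both genes have near copies: C1rb took at most 0.657% of the C1ra and C1rb counts of any library, and C1s2 at most 1.06% of the C1s1 and C1s2 counts.

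C4b encodes C4, the first substrate of C1s, and had the largest fold change of the 7 in both lines. It stood at 359.1, 330.7 and 391.0 CPM in irradiated KPC cells, against 0.0416, 0 and 0.1634 CPM in KPC controls. In irradiated MB49 cells it stood at 38.78, 35.64 and 27.34 CPM, against 0.07265, 0.1833 and 0.1302 CPM in MB49 controls. The gene was close to the counting limit in every control library, with 5 counts over the KPC controls and 10.43 estimated counts over the MB49 controls. The log2 fold change was 12.29 ± 0.31 (adjusted p = 4.5e-15) in KPC and 7.98 ± 0.30 (adjusted p = 5.86e-13) in MB49 cells. Both standard errors are derived from the test statistic and understate the counting error of so few control counts. For the difference of the responses between the lines the standard error was 0.84. The KPC fold change rests on those few counts: on the log2 scale it was 13.8 without KPC control replicate 3 and 11.69 without KPC control replicate 2. C4b and C4a share 34.6% of the 50-base words of C4b, and C4a held 0.217% of their joint counts in irradiated KPC and 2.13% in irradiated MB49 cells. In controls, where both genes had few counts, C4a held on average 65.0% of the joint counts in KPC and 49.8% in MB49 cells. Their reads may be split there, and what this does to the fold changes was not tested.

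C2, the other C1s substrate, differed between the lines in whether it changed. It stood at 9.379, 8.934 and 10.52 CPM in irradiated KPC cells, against 0.3328, 0.1871 and 0.4494 CPM in KPC controls. In irradiated MB49 cells it stood at 0, 0.3376 and 0.04665 CPM, against 0.03633, 0.0733 and 0.3037 CPM in MB49 controls. Only the irradiated KPC libraries lay clear of the rest, and the MB49 groups overlapped. C2 rose 29.5-fold in KPC cells (log2 4.88 ± 0.45, adjusted p = 6.74e-08). In MB49 cells the log2 difference was 0.04 ± 0.85 (adjusted p = 0.974), with a 95% interval of -1.75 to 1.83, from 8 counts in irradiated and 10.25 estimated counts in control cells. At this depth the value hung on single libraries: it was 1.204 (adjusted p = 0.293) without MB49 control replicate 3 and -2.12 (adjusted p = 0.125) without irradiated MB49 replicate 2. Of its 50-base words 38.7% also occur in the overlapping gene Gm20547, which had 0 counts in irradiated KPC, 6.91 in control KPC, 2.49 in irradiated MB49 and 10.97 in control MB49 cells. Zbtb12 overlaps C2 on the other strand, and it held 2267 counts in irradiated and 2415 in control KPC cells.

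C3, the central component on which all pathways meet, stood at 741.3, 666.4 and 708.9 CPM in irradiated KPC cells, against 24.8, 29.49 and 33.01 CPM in KPC controls. In irradiated MB49 cells it stood at 2910, 2622 and 1970 CPM, against 643.0, 594.6 and 525.7 CPM in MB49 controls. No library of the irradiated groups overlapped its controls, and every irradiated KPC library lay above the MB49 controls. C3 rose 24.2-fold in KPC (log2 4.60 ± 0.17, adjusted p = 5.58e-13) and 4.25-fold in MB49 cells (log2 2.09 ± 0.16, adjusted p = 3.05e-09).

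Cfb encodes factor B of the alternative pathway and showed the widest gap between the lines. It stood at 550.6, 534.3 and 552.3 CPM in irradiated KPC cells, against 0.5408, 0.6737 and 0.1226 CPM in KPC controls. In irradiated MB49 cells it stood at 2.992, 3.376 and 2.426 CPM, against 0.3269, 0.2199 and 0.7376 CPM in MB49 controls. Cfb was low in both control groups, rose in both lines and reached a high level only in irradiated KPC libraries. The log2 fold change was 10.22 ± 0.31 (adjusted p = 6.4e-14) in KPC and 2.81 ± 0.35 (adjusted p = 2.14e-06) in MB49 cells. Cfb and Gm20547 share 73% of the 50-base words of Cfb, and the split of reads between them was made by the authors' counting.

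Serping1 encodes the C1 inhibitor, which blocks C1r and C1s. It stood at 39.75, 38.34 and 42.9 CPM in irradiated KPC cells, against 0.2496, 0.1123 and 0.0817 CPM in KPC controls. In irradiated MB49 cells it stood at 2.072, 2.749 and 2.566 CPM, against 0.3269, 0.3665 and 0.5207 CPM in MB49 controls. Each irradiated group lay above its controls with no overlap. The log2 fold change was 8.05 ± 0.26 (adjusted p = 7.83e-14) in KPC and 2.61 ± 0.25 (adjusted p = 7.84e-08) in MB49 cells. The KPC controls held 11 counts in all, and the KPC standard error understates their counting error.

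Cd55 speeds the decay of the C3-cleaving enzymes, and Cd59a blocks the membrane attack complex. Neither was detected at a level that could be compared. Cd55 had 0 counts in irradiated and control KPC cells and 1 count each in irradiated and control MB49 cells. Cd59a had 0 counts in irradiated KPC, control KPC and irradiated MB49 cells, and its 2 counts in MB49 controls both came from replicate 3. A count of 0 over a group of 3 libraries allows up to 0.0494 CPM in irradiated KPC, 0.0399 CPM in control KPC and 0.0504 CPM in irradiated MB49 cells (3 counts, counting error only).

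The responses of the lines were compared directly. For all 7 tested members the log2 response of KPC cells exceeded that of MB49 cells, and 20.9% of all genes were called higher and 22% lower in this comparison. The difference was 7.42 ± 0.62 for Cfb (adjusted p = 1.4e-07), 5.44 ± 0.43 for Serping1 (adjusted p = 6.04e-08) and 3.56 ± 0.19 for C1s1 (adjusted p = 5.17e-10). It was 2.51 ± 0.22 for C3 (adjusted p = 1.47e-07) and 1.41 ± 0.17 for C1ra (adjusted p = 8.17e-06). For C2 it was 4.84 ± 1.06 (adjusted p = 0.00148), but 3.68 (adjusted p = 0.0425) without MB49 control replicate 3 and 7.003 without irradiated MB49 replicate 2. For C4b it was 4.31 ± 0.84 (adjusted p = 0.000608), but 5.82 without KPC control replicate 3 and 3.71 without KPC control replicate 2. For Serping1 it was 6.11 without KPC control replicate 1.

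**Figure D2:**
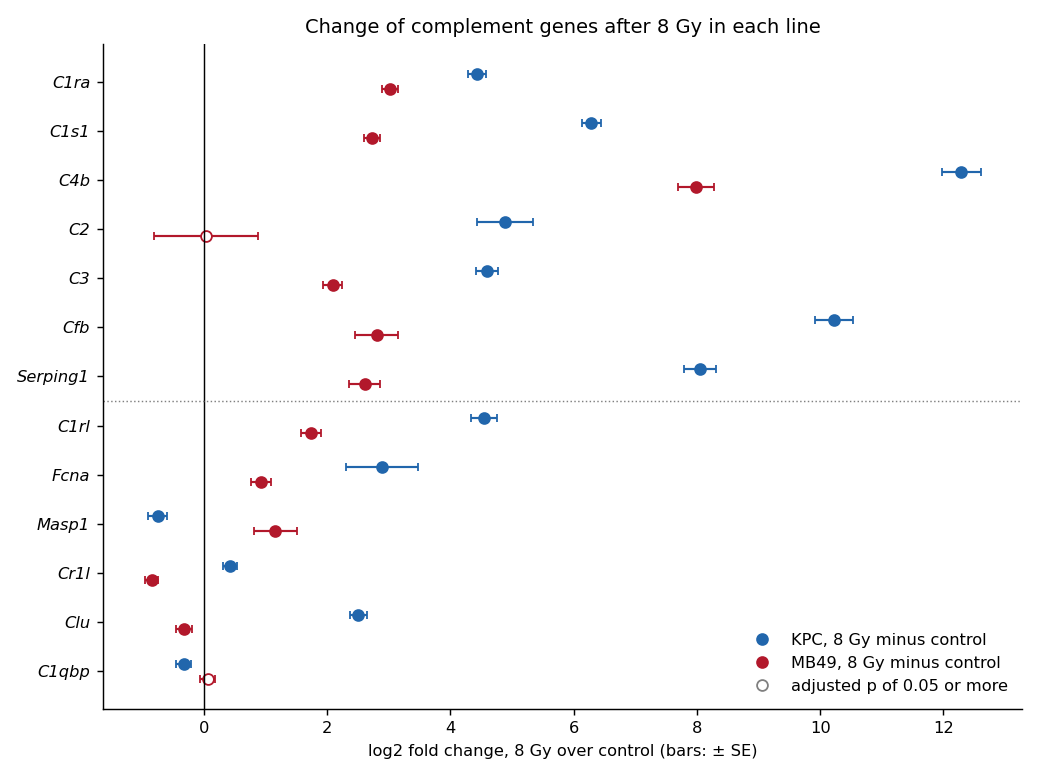
Log2 fold change of 8 Gy over control, from edgeR, for the 7 tested members (above the dotted line) and 6 other complement genes (below it) in KPC and MB49 cells, 3 libraries per group. Bars are ± SE and open circles mark an adjusted p of 0.05 or more; the KPC value is the larger for each member, and the bar of C2 in MB49 cells spans 0. For some genes with few control counts the bars understate counting error, among them C4b in both lines and Serping1 and Fcna in KPC cells.

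Before irradiation the members that differed most between the lines were C1s1 and C3. In KPC controls 4 members were called lower than in MB49 controls (34.4% of all genes were), and none was called higher (33% of all genes were). The log2 difference was -5.13 ± 0.15 for C1s1 (adjusted p = 1.28e-14), -4.34 ± 0.17 for C3 (adjusted p = 4.44e-13), -1.58 ± 0.13 for C1ra (adjusted p = 7.19e-09) and -1.42 ± 0.40 for Serping1 (adjusted p = 0.00441). Serping1 stood at -2.01 without KPC control replicate 1. Cfb, C4b and C2 were low in both and did not pass, with 95% intervals of -0.86 to 1.11, -2.53 to 0.74 and -0.20 to 2.74. C2 was called higher, at 2.43 (adjusted p = 0.0129), without MB49 control replicate 3. C4b was called lower, at -2.41 (adjusted p = 0.0461), without KPC control replicate 3.

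After irradiation the order of the lines depended on the gene. In irradiated KPC cells 4 members were called higher than in irradiated MB49 cells (31% of all genes were) and 2 lower (33.4% of all genes were). Cfb was 186-fold higher (log2 7.54 ± 0.26, adjusted p = 1.45e-13), Serping1 16.3-fold (log2 4.02 ± 0.19, adjusted p = 4.09e-12) and C4b 10.6-fold (log2 3.41 ± 0.17, adjusted p = 1.44e-11). C2 was higher by 6.11 ± 0.53 on the log2 scale (adjusted p = 2.43e-08), or by 8.27 without irradiated MB49 replicate 2. C3 was 3.54-fold lower (log2 -1.83 ± 0.15, adjusted p = 1.34e-08) and C1s1 2.96-fold lower (log2 -1.57 ± 0.13, adjusted p = 6.92e-09). C1ra overlapped between them, at -0.17 ± 0.12 (adjusted p = 0.23, 95% interval -0.42 to 0.09). C1ra was called lower, at -0.29 (adjusted p = 0.0303), with scaling by library totals alone. It was also called lower, at -0.27, with upper-quartile scaling (adjusted p = 0.0415) and without irradiated MB49 replicate 3 (adjusted p = 0.0457).

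Levels were compared between members as CPM per kilobase of gene length. The members summed to 647 ± 17.0 in irradiated KPC and 12.3 ± 0.955 in control KPC cells (SD, n = 3). In MB49 cells they summed to 943.5 ± 117 after irradiation and 179 ± 13.4 in controls. In irradiated KPC cells Cfb came first, at 199 ± 3.63 CPM per kilobase and 30.8% of the sum. C3 followed at 137 ± 7.31, then C1s1 at 111 ± 9.32 and C1ra at 105 ± 1.48, whose libraries overlapped, and then C4b at 66.97 ± 5.61 CPM per kilobase. In KPC controls C3 at 5.67 ± 0.802 and C1ra at 4.87 ± 0.228 CPM per kilobase overlapped and led the order. In MB49 cells C3, C1s1 and C1ra kept that order in both groups: C3 held 51.6% of the sum after irradiation and 63.9% in controls, C1s1 34.9% and 27.8%, and C1ra 12.5% and 8.1%.

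**Figure D3:**
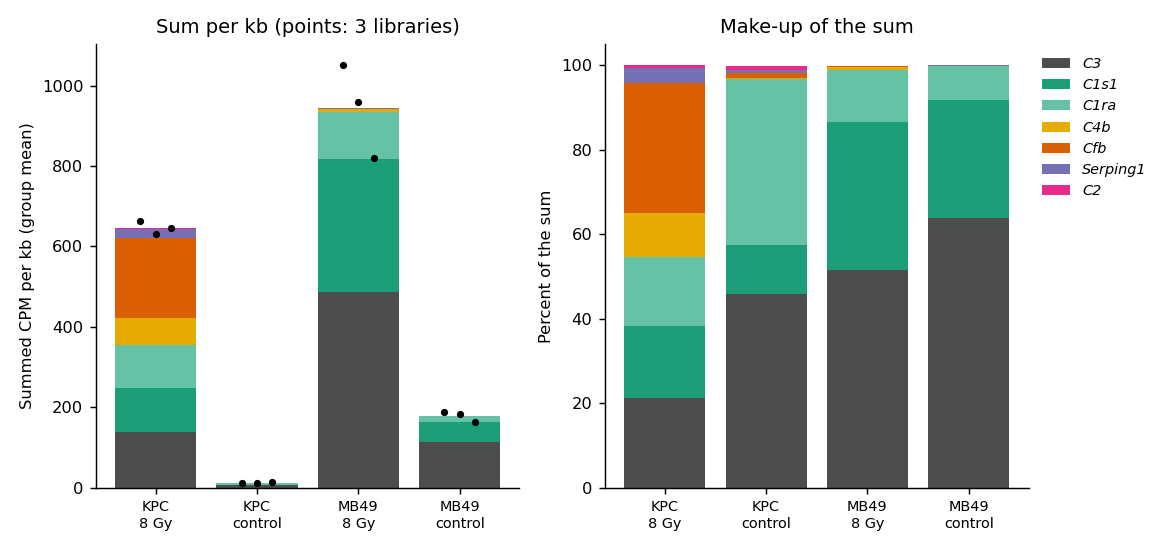
Left, members' summed CPM per kilobase as stacked group means, with a point for the sum in each of 3 libraries; right, the share of each member in that sum, in percent. Cfb holds 30.8% in irradiated KPC cells, while C3 and C1s1 hold most of the sum in both MB49 groups.

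Of 44 other complement genes 13 passed the filter. Some, such as C1s2, had few or no counts in controls and passed through irradiated libraries, which favoured a rise in advance. In KPC cells 10 of the 13 rose and 2 fell after irradiation, where 31.3% of all genes were called higher and 32% lower. In MB49 cells 7 rose and 3 fell, where 35.3% were called higher and 31.6% lower. With only the libraries of the compared groups in the fit 6 rose in KPC and 6 in MB49 cells, as some genes then fell below the filter. In KPC cells 9 rose with scaling by library totals and 11 without irradiated KPC replicate 2. The count that fell in MB49 cells was 1, Cr1l alone, without irradiated MB49 replicate 1, without MB49 control replicate 1 and with a replicate block, since Clu and C3ar1 then lost their calls. C3ar1, the receptor for the C3a fragment, had 12 counts in irradiated and 42 in control MB49 cells (log2 -1.40 ± 0.53, adjusted p = 0.029). The count that fell in KPC cells was 1 without KPC control replicate 1, without each irradiated KPC library, with a replicate block and under DESeq2. The close relatives of the proteases rose in both lines: C1rl, of C1r-like sequence, averaged 12.3 ± 0.868 CPM in irradiated and 0.521 ± 0.0673 CPM in control KPC cells, and 12.55 ± 1.13 CPM in irradiated and 3.76 ± 0.510 CPM in control MB49 cells. Its log2 fold change was 4.55 ± 0.21 in KPC (adjusted p = 5.49e-12) and 1.73 ± 0.16 in MB49 cells (adjusted p = 5.88e-08). C1s2 had 0 counts in KPC controls, so its level in irradiated KPC cells was at least 50.8-fold higher (floor of 3 counts over the group, adjusted p = 5.17e-09), and in MB49 cells it rose by 4.82 ± 0.27 on the log2 scale (adjusted p = 4.95e-10). It shares 21.8% of the 50-base words of C1s1, and their reads may be split.

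Of the lectin pathway genes Masp1 and Fcna, both rose in MB49 cells, while in KPC cells Masp1 fell and Fcna rose. Masp1, a protease of that pathway, averaged 26.1 ± 2.40 CPM in irradiated and 43.7 ± 6.17 CPM in control KPC cells, a log2 change of -0.75 ± 0.15 (adjusted p = 0.000356). In MB49 cells it was near the counting limit, at 0.650 ± 0.243 CPM in irradiated and 0.284 ± 0.0585 CPM in control cells (log2 1.16 ± 0.35, adjusted p = 0.00687). Fcna, a ficolin that recognises sugars, averaged 45.35 ± 3.61 CPM in irradiated and 23.8 ± 3.10 CPM in control MB49 cells (log2 0.93 ± 0.17, adjusted p = 0.000104). In KPC cells Fcna was near the counting limit, with 26 counts in irradiated and 4 in control cells and at most 0.5719 CPM in any library (log2 2.89 ± 0.58, adjusted p = 0.000346). That value was 4.11 without KPC control replicate 3, and its standard error understates the counting error of the 4 control counts.

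Among regulators, Cr1l encodes Crry, a rodent membrane protein that limits C3 cleavage. It averaged 18.9 ± 0.690 CPM in irradiated and 14.1 ± 1.41 CPM in control KPC cells, and 39.0 ± 2.75 CPM in irradiated and 70.2 ± 2.52 CPM in control MB49 cells. It fell in MB49 cells (log2 -0.85 ± 0.11, adjusted p = 3.89e-06) and rose in KPC cells (log2 0.43 ± 0.12, adjusted p = 0.00409). Scaling by library totals alone ended the KPC call (0.04, adjusted p = 0.741), which moved the median of all genes by -0.384 there. The difference of the responses was 1.28 ± 0.16 (adjusted p = 1.04e-05). Per kilobase, C3 was 11.97 ± 0.411 times Cr1l in irradiated and 0.676 ± 0.164 times in control KPC cells, and 20.7 ± 4.77 times in irradiated and 2.69 ± 0.269 times in control MB49 cells (SD, n = 3).

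Clu encodes clusterin, an inhibitor of the terminal complex with many other roles. It averaged 156 ± 10.55 CPM in irradiated and 27.4 ± 2.80 CPM in control KPC cells (log2 2.51 ± 0.13, adjusted p = 3.81e-11). In MB49 cells it averaged 38.3 ± 5.39 CPM after irradiation and 47.7 ± 3.52 CPM in controls (log2 -0.32 ± 0.13, adjusted p = 0.0346), a call that was lost without irradiated MB49 replicate 3 (-0.21, adjusted p = 0.145) and without each of 3 other MB49 libraries.

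**Figure D4:**
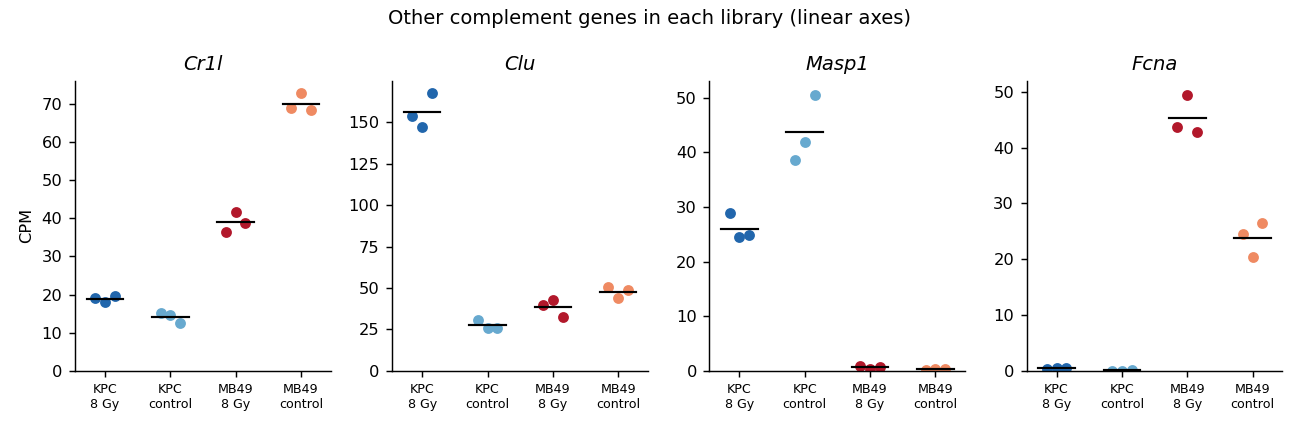
Levels of Cr1l, Clu, Masp1 and Fcna in every library, in CPM on linear axes that start at 0, with 1 point per library, the mean of 3 libraries as a black bar and groups as for the members. Cr1l is lower in irradiated than in control MB49 cells, Clu is higher and Masp1 lower in irradiated than in control KPC cells, and Fcna is near 0 in KPC cells.

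C1qbp, which encodes a protein named for C1q binding, averaged 150.3 ± 3.99 CPM in irradiated and 189 ± 34.1 CPM in control KPC cells (log2 -0.33 ± 0.13, adjusted p = 0.0332), a call that was lost without KPC control replicate 1 (-0.16, adjusted p = 0.226), without each of the 3 irradiated KPC libraries and under DESeq2 (-0.27, adjusted p = 0.0559). In MB49 cells its log2 difference was 0.06 ± 0.13 (adjusted p = 0.684).

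Counting the members, 33 of 53 complement genes fell below the filter, 11 of them with 0 counts in all 12 libraries, and the highest count of any of the 33 in a library was 11. Over all 12 libraries the C1q chains C1qa, C1qb and C1qc, which recognise the target in the classical pathway, had 6, 2 and 3 counts, of which 3, 2 and 3 were in MB49 control replicate 3, the library that stood apart. The terminal components C6 and C9, which build the membrane attack complex, had 1 and 14 counts, and C8a and C8b had 0. C7, of the same complex, had 20 counts in irradiated and 1 in control KPC cells and 0 in MB49 cells. C8g, a chain of the terminal component C8, passed the filter with 59 counts in irradiated and 22 in control MB49 cells (log2 1.79 ± 0.46, adjusted p = 0.00247). Its irradiated MB49 libraries had 15 to 26 counts and no other library more than 9, so the filter favoured that rise in advance. In KPC cells it had 18 counts in irradiated and 9 in control cells and was not called (log2 1.29 ± 0.61, adjusted p = 0.0728). The fluid-phase factors Cfd and Cfi had 0 and 3 counts, and Cfp, which encodes properdin, had 67.

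Genes with the most similar profiles were sought as those with the smallest root mean square difference of centred log2(CPM + 0.5) over the 12 libraries, among 9682 genes with a mean of at least 5 CPM. The closest was Hspa8 for C1ra (0.316), Cd68 for C1s1 (0.324), Aldh3a1 for C3 (0.341), and D17H6S56E-5 for C2 (0.313). It was Sprr2d for Serping1 (0.367), Gbp10 for C4b (0.503) and Ifit3b for Cfb (0.809). Among the members the closest pair was C1s1 and C3 (0.626), and the farthest was C3 and Cfb (3.76). The profiles share libraries and group differences, and these values are a description with no test.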

How the data were processed

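RNA was extracted with TRIzol and libraries were made with an Illumina stranded mRNA kit, per the labels' protocols. The submitters' processing notes name fastp, HISAT2, StringTie and GRCm39, with no versions. The counting tool and its strand setting are not given in the sources used here, so reads of overlapping or near-identical genes may be shared. The authors deposited estimated counts per gene, unscaled, with some values not whole, and these were rounded before testing. The 525 rows without a symbol held 0.184 to 0.449% of a library's counts. Genes were filtered with filterByExpr by group (42818 removed), scaled by TMM (factors 0.829 to 1.18) and fitted with edgeR's quasi-likelihood model over all 12 libraries, with 1 coefficient per group. Benjamini-Hochberg adjustment ran over all 14362 genes, and calls needed an adjusted p under 0.05. Tests were 2-sided, and standard errors are the size of the log2 fold change over the square root of F. Where a control group held few counts, such a standard error can be smaller than the counting error. Levels per kilobase use the deposited gene length. Intervals and floors cover counting error only where they rest on counts. Shared 50-base words were counted in GENCODE transcripts.

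The members and lists were chosen with earlier results of these data known. All 9 members are named, with other complement genes that passed the filter and the closest profiles. Scripts were tested on simulated data. Alternatives were DESeq2, other scalings, no filter, only the compared groups, a replicate block and leaving out each library. Software was R 4.3.3, edgeR 4.0.16, limma 3.58.1, DESeq2 1.42.0, the data.table package (1.17.8), Python 3.11.15, pandas 2.3.3, numpy 2.4.6 and scipy 1.17.1. Promoter coordinates are on GRCm38.p6, another build than the counts.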

Additional observations from a re-analysis of the deposited data

Results flagged for a closer look

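The 8 Gy response differed between KPC and MB49 cells, by the test of the difference itself, for the 7 tested members. The log2 difference, KPC minus MB49, was 1.41 for C1ra, 3.56 for C1s1, 4.84 for C2, 2.51 for C3, 4.31 for C4b, 7.42 for Cfb and 5.44 for Serping1. The same test was passed by 8 of the 13 other complement genes tested, 7 of them higher and 1 lower, where 20.9% of all genes were called higher and 22% lower. The fitted difference was 2.81 for C1rl, 3.70 for C1s2, 1.96 for Fcna, 2.83 for Clu and 1.28 for Cr1l, and it was -1.91 for Masp1. C1s2 and C3ar1 had 0 counts in KPC controls, so their fitted differences depend on the fit's handling of 0; with those controls set to 3 counts in all the difference is at least 0.85 for C1s2 and 2.72 for C3ar1. The fitted difference was 5.66 for C3ar1 and 6.22 for Cd93, which had few counts: C3ar1 had 6 counts in irradiated and 0 in control KPC cells, and 12 in irradiated and 42 in control MB49 cells. Cd93 had 111 counts in irradiated and 3 in control KPC cells, and 4 in irradiated and 10 in control MB49 cells. Without irradiated KPC replicate 3 or KPC control replicate 2 the Fcna difference no longer passed (1.75, adjusted p = 0.0509, and 1.76, adjusted p = 0.0663), and it was 3.18 without KPC control replicate 3.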

How the results depend on the processing

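No value changed sign among called members, and every call of a member in the 8 Gy responses and their difference was kept under every alternative. Between untreated lines the number of members called higher was 1 with no filter on low counts (C2, 1.24, adjusted p = 0.0467) and 0 to 1 on leaving out each library. Member values kept their side of the threshold in 613 recomputations and newly passed in 6. For other complement genes 26 calls were lost and 4 gained against 1112 kept. Scaling by library totals moved the median of all genes by -0.384 in KPC and -0.295 in MB49 cells. In KPC cells 31.8% of called genes were then higher, against 49.4% under TMM, and in MB49 cells 39.5%, against 52.7%. Same-numbered irradiated and control libraries deviated with correlations of -0.116, -0.0233 and 0.0194 in KPC and 0.171, -0.178 and 0.0549 in MB49 cells. These values show no clear pairing by replicate number, but with 3 libraries per group they cannot exclude it. The replicate block called 8723 genes in KPC and 9190 in MB49 cells, against 9086 and 9606, with the same number of members. Depth limits C2 in MB49 cells, C4b in controls, Cd55 and Cd59a.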
